A study of Mus musculus and Bos taurus with 6 samples.

Results

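The miR-101 family is a small group of related miRNA, and its members were taken here as the lines of the mouse and bovine quantification lists that carry a mouse or bovine miR-101, miR-101a, miR-101b or miR-101c name, on either arm of the hairpin. This rule gave 5 of 3289 lines, 4 of them in the mouse list of 1750 lines (miR-101a-3p, miR-101a-5p, miR-101b-3p and miR-101c) and 1 in the bovine list of 1539 lines (miR-101). Names without an arm were placed by the position that the lists give, which put mouse miR-101c and bovine miR-101 on the 3p arm.

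The study sequenced small RNA from the lactating mammary gland in 3 groups of 2 samples each. The mouse miRNome came from total RNA of whole glands of FVB/N mice on day 12 of lactation, and the AGO2-miRNome from small RNA that was co-precipitated with a monoclonal antibody to Argonaute 2 from lysates of glands of the same strain and stage. The bovine miRNome came from biopsies of Holstein cows at mid-lactation on a low forage diet, with RNA of 2 cows pooled in each sample. Total counts were 9299807 and 8391916 in the mouse samples, 3909166 and 5041406 in the AGO2 samples and 9402483 and 10613807 in the bovine samples, and a count of 0 allows up to 0.283 to 0.767 RPM, taken as 3 counts of the total. RPM are the counts of a miRNA scaled to a common total over all counts of its library. The study collected glands of both sides from 2 mice and made the AGO2 libraries from 2 animals, so the mouse and AGO2 samples may come from the same mice. The labels do not say which gland or mouse gave each, and the groups were compared as separate samples. No control precipitation was used here, and a p-value measures only the spread between the samples sequenced. Of miRNA with at least 100 RPM, 44 of 171 in the mouse samples and 46 of 167 in the AGO2 samples lay more than 2-fold apart between the samples of the group, against 2 of 172 in the bovine pools. The 6 epithelial marker miRNA (the miR-200 family with miR-141 and miR-205) were counted in every library. They summed to 159803 and 188746 RPM in mouse, 338037 and 368284 RPM in AGO2 and 77607 and 79458 RPM in bovine. The sums hide a split among the markers. By the edgeR test used below, 2 of these 6 were called higher in AGO2 than in mouse, 2 lower and 2 not. Over all miRNA tested, 27.8% were called. In bovine against mouse 1 was called higher, 4 lower and 1 not, where 57.9% of all matched miRNA were called.

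A miRNA is excised as a short duplex from a hairpin precursor. The strand that is retained in an Argonaute protein guides the complex to messenger RNA through its seed, the bases near its 5′ end, and the other strand is mostly lost. miR-101 is best known as a repressor of EZH2, the histone methyltransferase of Polycomb complex PRC2, and of COX-2, the prostaglandin synthase encoded by Ptgs2, and miR-101a has been described as a repressor of beta-casein synthesis in mouse mammary epithelial cells.

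The mature sequences below are those in the deposited lists, shown because the members differ by so little that the counting of each depends on single bases. Capitals mark the seed, nucleotides 2 to 8 from the 5′ end.
mmu-miR-101a-3p: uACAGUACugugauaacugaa
mmu-miR-101b-3p: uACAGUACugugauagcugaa
bta-miR-101: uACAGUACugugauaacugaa
mmu-miR-101c: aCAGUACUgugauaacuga
mmu-miR-101a-5p: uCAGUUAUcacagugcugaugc

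Mouse miR-101a-3p and miR-101b-3p shared their seed and 20 of 21 bases, and differed by the substitution A16G, with positions counted from 1 at the 5′ end of miR-101a-3p. Bovine miR-101 was identical to mouse miR-101a-3p over all 21 bases. The 19 bases of miR-101c were positions 2 to 20 of miR-101a-3p, so that its seed is shifted by 1 base, and a read of these 19 bases alone cannot be assigned to either miRNA by its sequence. The values of miR-101c, and the division of counts between the 3p members, are uncertain to that extent.

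The mouse members are annotated to the hairpins Mir101a, which holds both miR-101a strands, Mir101b and Mir101c. The hairpins are printed here from RefSeq and, for Mir101c, from the GENCODE annotation of GRCm38, because they show where each counted strand lies. Capitals mark the counted mature miRNA.
Mir101a: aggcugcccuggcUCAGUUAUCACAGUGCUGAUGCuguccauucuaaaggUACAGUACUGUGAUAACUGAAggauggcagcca
Mir101b: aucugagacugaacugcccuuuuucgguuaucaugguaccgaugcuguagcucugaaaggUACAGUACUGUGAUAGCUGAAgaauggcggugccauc
Mir101c: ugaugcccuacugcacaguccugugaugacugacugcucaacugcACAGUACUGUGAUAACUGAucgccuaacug

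Mir101a lies at chr4:101346945-101347027 on the minus strand of GRCm38, within exon 2 of a transcript of the long non-coding RNA gene E130102H24Rik on the same strand. Mir101b lies at chr19:29135279-29135375 on the plus strand, within the protein-coding gene Rcl1 on the same strand and outside its exons. Mir101c lies at chr9:3038669-3038743 on the minus strand, where the annotation lists no other gene. In the Mir101a hairpin the counted 5p strand spans bases 14 to 35 and the 3p strand bases 51 to 71. The mouse list held no miR-101b line on the 5p arm, so that arm of Mir101b was not analysed here, and no bovine coordinates are given.

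In the lactating mouse gland the family was carried by its 3p strands, and miR-101b-3p was its most abundant member in all 4 mouse and AGO2 libraries, by a single count in AGO2 sample 1. miR-101b-3p stood at 2387 and 3470.0 RPM in the mouse samples and at 1750.2 and 2000.2 RPM in the AGO2 samples, which placed it at ranks 56, 48, 58 and 51. miR-101a-3p stood at 836 and 1619 RPM in the mouse samples and at 1750.0 and 1491 RPM in the AGO2 samples, at ranks 79, 62, 59 and 60. Between 773 and 1080 miRNA had a count in these libraries. In both mouse samples miR-101b-3p lay above miR-101a-3p by more than counting error, and in AGO2 sample 1 they could not be told apart, with 6842 and 6841 counts.

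miR-101c stood far below, at 28.7 and 56.6 RPM in the mouse samples and at 129 and 46.6 RPM in the AGO2 samples. AGO2 sample 1 was the only library in which it passed 100 RPM, and the AGO2 values lay on both sides of the higher mouse value. miR-101a-5p, the other strand of the Mir101a hairpin, stood at 4.09 and 4.17 RPM in the mouse samples and at 0.512 and 6.74 RPM in the AGO2 samples. Its value in AGO2 sample 1 rests on 2 counts, under the limit of 3 counts, so its level there was not detectable at this depth.

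In the bovine gland miR-101-3p stood at 762 and 665 RPM (713 ± 69.1, SD, n = 2), at ranks 96 and 97 of 1126 and 1120 miRNA with a count. No bovine 5p line carried a bovine name. The bovine list counts the human entry hsa-miR-101-5p, at 4.36 and 4.71 RPM, and it is given here for comparison only. Its sequence begins at position 2 of mouse miR-101a-5p and shares 21 bases with it.
hsa-miR-101-5p: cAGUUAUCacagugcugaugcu
In level order the mouse samples ran miR-101b-3p, miR-101a-3p, miR-101c and miR-101a-5p, and neighbours in this order did not overlap within a sample. Over the mouse samples as a group, the ranges of neighbouring members did not overlap either. In the AGO2 samples the order was the same, with miR-101b-3p and miR-101a-3p inseparable in sample 1.

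**Figure D1:**
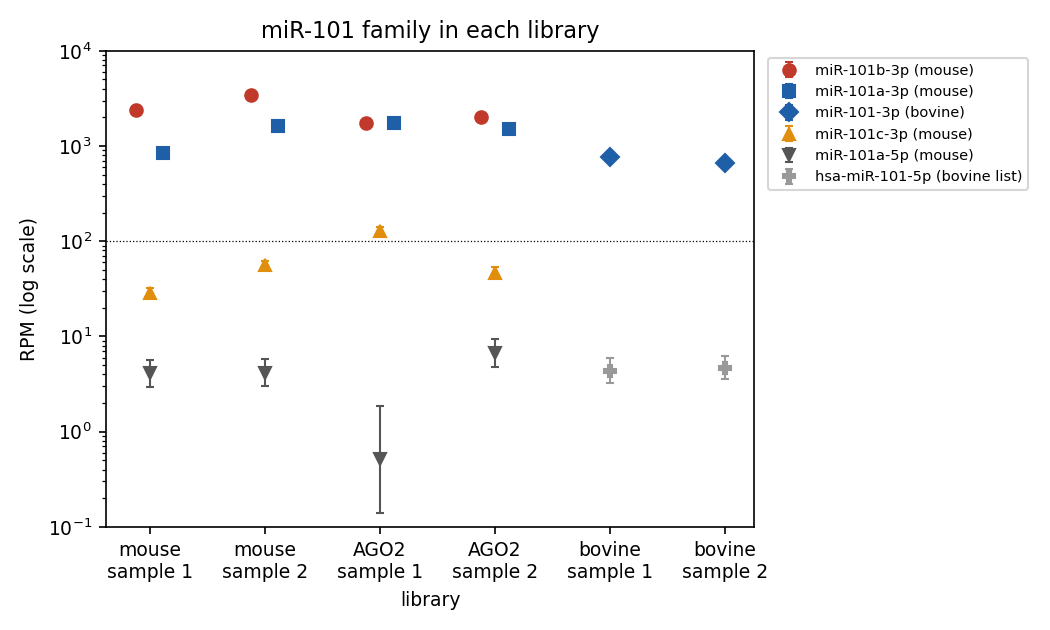
Level of each miR-101 member in the 6 libraries in RPM on a log axis, with bars for the 95% Wilson interval of counting error and a dotted line at 100 RPM. miR-101b-3p and miR-101a-3p sit between 836 and 3470.0 RPM in the mouse and AGO2 libraries and bovine miR-101-3p at 665 and 762 RPM, while the 5p strands stay under 10 RPM.

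The comparison of the AGO2-miRNome with the mouse miRNome asks which miRNA are held by Argonaute 2 in another proportion than they have in the tissue. No 3p member of the family passed the test. miR-101a-3p averaged 1227 ± 554 RPM in mouse and 1621 ± 183 RPM in AGO2 (SD, n = 2 each), miR-101b-3p 2928 ± 766 and 1875 ± 177 RPM, and miR-101c 42.7 ± 19.7 and 87.6 ± 58.0 RPM. The AGO2 values of miR-101a-3p and of miR-101c overlapped those of mouse. Both AGO2 values of miR-101b-3p lay under both mouse values, as they did for 42.1% of the 299 miRNA tested.

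By the quasi-likelihood test of edgeR, adjusted after Benjamini and Hochberg over the 299 miRNA, the log2 fold change of AGO2 over mouse was 0.54 (SE 0.58, adjusted p = 0.477) for miR-101a-3p and -0.49 (SE 0.54, adjusted p = 0.478) for miR-101b-3p. For miR-101c it was 1.15 (SE 0.78, adjusted p = 0.261). Thus 0 of the 3 members tested were called, where 27.8% of all miRNA tested were, 15.4% as higher and 12.4% as lower, and by DESeq2 the members called were also 0 of 3, with 39.1% of all miRNA. At an unadjusted p under 0.05, edgeR gave 0 of 3 as well, against 43.8% of all miRNA tested. Ordered by fold change, miR-101a-3p had 115 miRNA above it and 183 below, and miR-101b-3p had 166 above it and 132 below. The standard errors leave room for a change of 2-fold in either member, so a like level in both miRNomes is not shown.

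**Figure D2:**
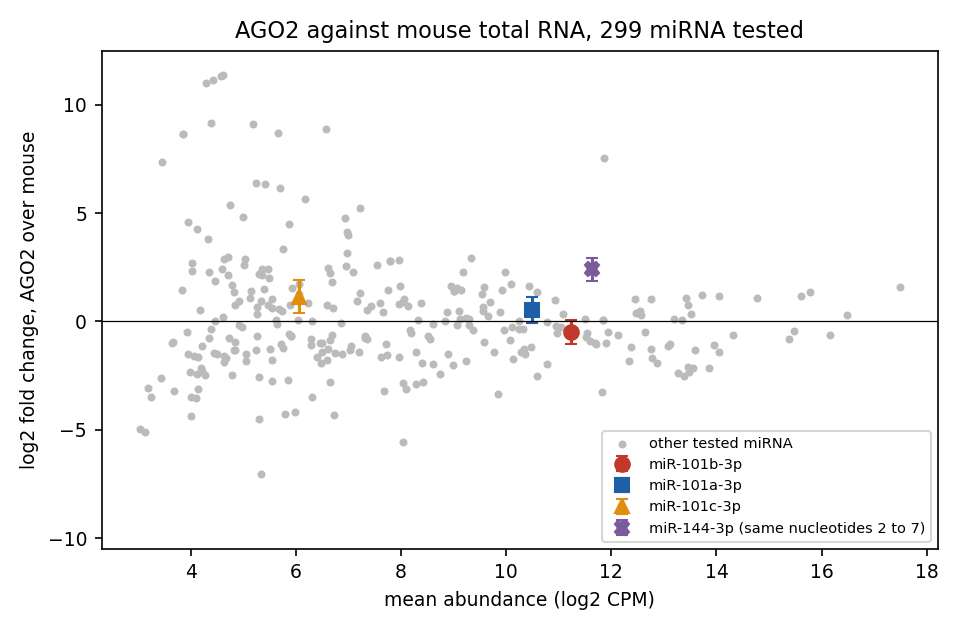
Log2 fold change of AGO2 over mouse total RNA against mean abundance in log2 CPM (counts scaled to a common total, after TMM) for the 299 miRNA tested, with the 3p members and miR-144-3p in colour and bars of 1 SE. The 3 members lie between -0.49 and 1.15 within the cloud of all miRNA, and miR-144-3p lies above them at 2.40.

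Since the 3p members share most of their sequence, their counts were also added. The sum was 3251 and 5146 RPM in the mouse samples (4198 ± 1339.7, SD, n = 2) and 3629 and 3538 RPM in the AGO2 samples (3583 ± 64.4, SD, n = 2). Both AGO2 sums lay between the mouse sums, and the log2 fold change was -0.06 (SE 0.52, adjusted p = 0.937 by edgeR's quasi-likelihood test, with 29.3% of all miRNA called in this fit). Its sign was not stable and turned when mouse sample 2 was left out, at 0.33.

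The proportions of the members were set side by side in the 2 miRNomes. miR-101b-3p made up 73.4% and 67.4% of the 3p counts in the mouse samples and 48.2% and 56.5% in the AGO2 samples. miR-101a-3p made up 25.7% and 31.5% in mouse and 48.2% and 42.1% in AGO2. miR-101c gave 0.883% and 1.10% in mouse and 3.55% and 1.32% in AGO2. Within a library, where no scaling enters, there were 2.86 and 2.14 counts of miR-101b-3p for each count of miR-101a-3p in the mouse samples and 1.00 and 1.34 in the AGO2 samples. The groups did not overlap, and the mean log2 ratio was 1.31 ± 0.29 in mouse and 0.21 ± 0.30 in AGO2 (SD, n = 2 each), a difference of -1.09. The exact two-sided permutation test gave p = 0.333, the smallest value that this test can give for 2 samples against 2, so the difference did not pass it. Adding the counts of miR-101c to those of miR-101a-3p gave a difference of -1.12. How many counts of a 3p member came from reads that suit another member was not tested.

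The ratio of miR-101c to miR-101a-3p did not separate the groups. There were 0.0343 and 0.0350 counts of miR-101c for each count of miR-101a-3p in the mouse samples and 0.0735 and 0.0313 in the AGO2 samples (exact two-sided permutation test, p = 1.00). In AGO2 sample 1 the count of miR-101c was 503 against 235 in AGO2 sample 2, although the former was the shallower library.

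The 2 strands of the Mir101a hairpin were compared within each library. The 5p strand gave 0.486% of the miR-101a counts in mouse sample 1 (95% Wilson interval 0.355% to 0.667%) and 0.257% in mouse sample 2 (0.185% to 0.357%). In the AGO2 samples it gave 0.0292% (0.00802% to 0.107%) and 0.450% (0.322% to 0.629%). The intervals cover counting error only, since reads copied by PCR without molecular identifiers are not independent molecules. AGO2 sample 1 lay below every other library and AGO2 sample 2 within the range of the mouse samples, and the exact two-sided permutation test gave p = 0.667. In the bovine samples the human 5p entry gave 0.569% (0.420% to 0.771%) and 0.704% (0.534% to 0.927%) of the miR-101 counts.

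Such a small share of the minor strand was common among mouse precursors. Over the 99 to 129 precursors with both arms listed and at least 1000 counts, the median share of the minor arm was 0.518% and 0.533% in the mouse samples and 0.281% and 0.673% in the AGO2 samples. The share of 63 of 129 precursors in mouse sample 1 and of 47 of 121 in mouse sample 2 was under that of Mir101a. In AGO2 sample 2 this held for 45 of 109 precursors. In AGO2 sample 1 it held for 37 of 99, a place that rests on 2 counts of miR-101a-5p. miR-101a-5p did not pass the count filter of the AGO2 comparison. Without a filter its log2 fold change was -0.06 (SE 4.23, adjusted p = 0.996 by edgeR's quasi-likelihood test), an error too wide to describe a change. The median over all miRNA of that unfiltered fit was 2.82. Without AGO2 sample 2, which leaves only the 2 counts of AGO2 sample 1, miR-101a-5p was at -2.98, beside a median of -0.59. Without AGO2 sample 1 it was at 0.98, beside a median of 1.20.

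miR-101a-3p, miR-101b-3p and bovine miR-101-3p share nucleotides 2 to 7 with miRNA of other names, and these were counted as well. miR-101c and miR-101a-5p do not share them. In mouse they were miR-144-3p, a product of the erythroid locus that also encodes miR-451a, and a predicted miRNA with 7 counts in AGO2 sample 2 and 0 elsewhere. In bovine they were miR-144-3p and miR-199c-3p. Capitals again mark nucleotides 2 to 8, of which only the last differs from miR-101a-3p.
mmu-miR-144-3p: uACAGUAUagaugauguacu
bta-miR-199c: uACAGUAGucugcacauugg

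miR-144-3p stood at 1105 and 1035 RPM in the mouse samples (1070.0 ± 49.2, SD, n = 2) and at 4767 and 5361 RPM in the AGO2 samples (5064 ± 420.2, SD, n = 2). All AGO2 values lay above all mouse values, which held for 31.1% of the miRNA tested. It rose in the AGO2-miRNome, by 2.40 on the log2 scale (SE 0.54, adjusted p = 0.00210 by edgeR's quasi-likelihood test). Together the miRNA with these 6 shared bases came to 4327 and 6124 RPM in mouse and 8267 and 8854 RPM in AGO2 (means 5226 ± 1271 and 8560.3 ± 415, SD, n = 2 each). miR-144-3p made up 25.5% and 16.9% of this sum in mouse and 57.7% and 60.6% in AGO2, so the larger sum in AGO2 lay in miR-144-3p and not in miR-101a-3p and miR-101b-3p, which together did not rise in both AGO2 samples above both mouse samples.

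The list of erythroid markers, to which miR-144-3p itself belongs, was set beside it. All 4 were counted in the mouse and AGO2 libraries, and their summed level with miR-144-3p included was 13369 and 6522 RPM in mouse and 32505 and 15557 RPM in AGO2. Of these sums miR-144-3p itself gave 1105 and 1035 RPM in mouse and 4767 and 5361 RPM in AGO2. The sums therefore do not show that the other markers as a set lay higher in AGO2. By the same edgeR test miR-144-5p (0.75, adjusted p = 0.575), miR-451a (1.23, adjusted p = 0.0652) and miR-486-5p (1.40, adjusted p = 0.183) were not called. DESeq2 called miR-451a (1.35, adjusted p = 0.0466, with 39.1% of all miRNA), as did edgeR with RLE size factors (adjusted p = 0.0318, with 92 of 299 miRNA). By edgeR miR-451a was not called with library totals alone (1.09, adjusted p = 0.159) or without a filter (0.99, adjusted p = 0.514). It stood at 1.84 without mouse sample 1, 0.75 without mouse sample 2, 0.75 without AGO2 sample 1 and 1.90 without AGO2 sample 2. In the same order miR-486-5p stood at 3.41, 0.54, 0.70 and 2.16. The AGO2 samples are a precipitate and the mouse samples total RNA, so these changes do not measure numbers of cells. In such bulk samples, cell number and RNA per cell cannot be told apart. The part of blood cells in the level of miR-144-3p was not tested.

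**Figure D3:**
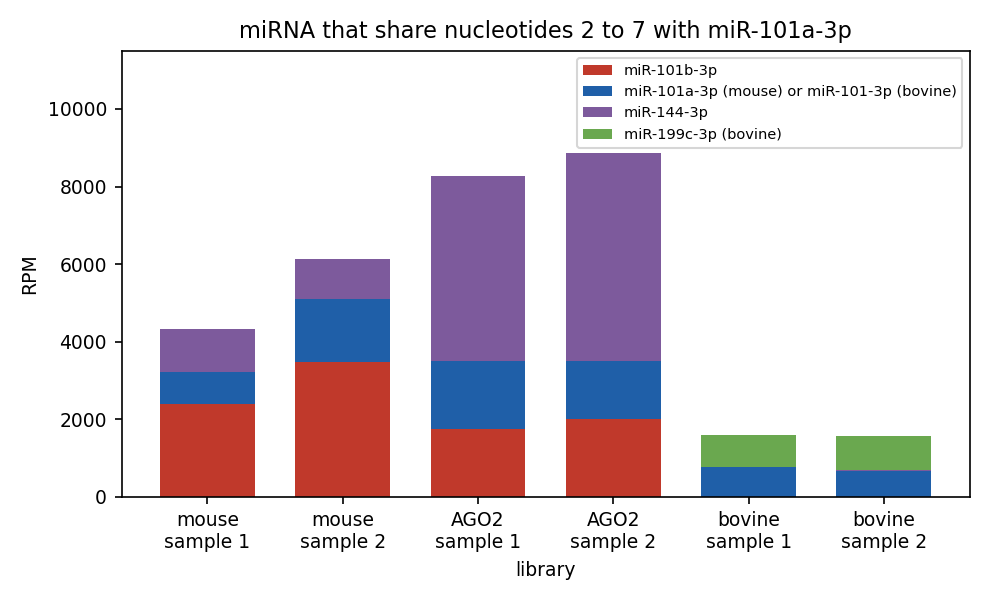
RPM of the miRNA that share nucleotides 2 to 7 with miR-101a-3p, stacked for each library from a base of 0. The stacks reach 4327 and 6124 RPM in mouse, 8267 and 8854 RPM in AGO2 and 1596 and 1571 RPM in bovine, with miR-144-3p as the largest block in AGO2. The predicted miRNA with 7 counts is not drawn.

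The comparison of species asks how far the lactating glands of mouse and cow carry the same miRNA. The mice were primiparous and the cows multiparous, and mouse glands stood against bovine biopsies. The RNA of the 2 species was extracted with different kits and the bovine samples were pools. Species, parity, tissue sampling, kit and pooling therefore cannot be told apart. Bovine miR-101-3p was compared first with mouse miR-101a-3p, whose sequence it shares. The bovine values of 762 and 665 RPM lay under both mouse values of 836 and 1619 RPM, as they did for 33.6% of the 152 matched miRNA tested. The difference was -1.23 on the log2 scale (SE 0.42, adjusted p = 0.0547 by edgeR's quasi-likelihood test), so it was not called, where 57.9% of the matched miRNA were and 30.3% as lower.

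This result rested on the setting. DESeq2 called it (-1.26, adjusted p = 0.0129, with 63.8% of all matched miRNA), as did edgeR without a filter (-1.26, adjusted p = 0.0265, with 57.4%). With a sample left out, edgeR gave -1.68 without mouse sample 1 and -0.74 without mouse sample 2. It gave -1.40 without bovine sample 1 and -1.32 without bovine sample 2. These fits leave 1 sample in a group and take their spread from the other, so only the size of the difference is given.

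Compared as a family, the relative counts on the bovine miR-101 line lay below the sum of the mouse 3p lines. Species, parity, tissue sampling, kit and pooling cannot be told apart here either. The 3p members summed to 3251 and 5146 RPM in mouse, against the 762 and 665 RPM of the bovine line. The sum fell by 2.98 on the log2 scale in bovine (SE 0.38, adjusted p = 0.00146 by edgeR's quasi-likelihood test, with 59.2% of the matched miRNA called and 30.3% as lower). It was called in all 9 alternatives, which gave values from -3.35 to -2.56. The mouse sum was mainly miR-101b-3p, for which the bovine list gives no line of its own, and the sum of 3 lines in mouse stands against 1 line in bovine. Whether bovine reads of such a sequence were counted on miR-101 or not at all was not tested.

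**Figure D4:**
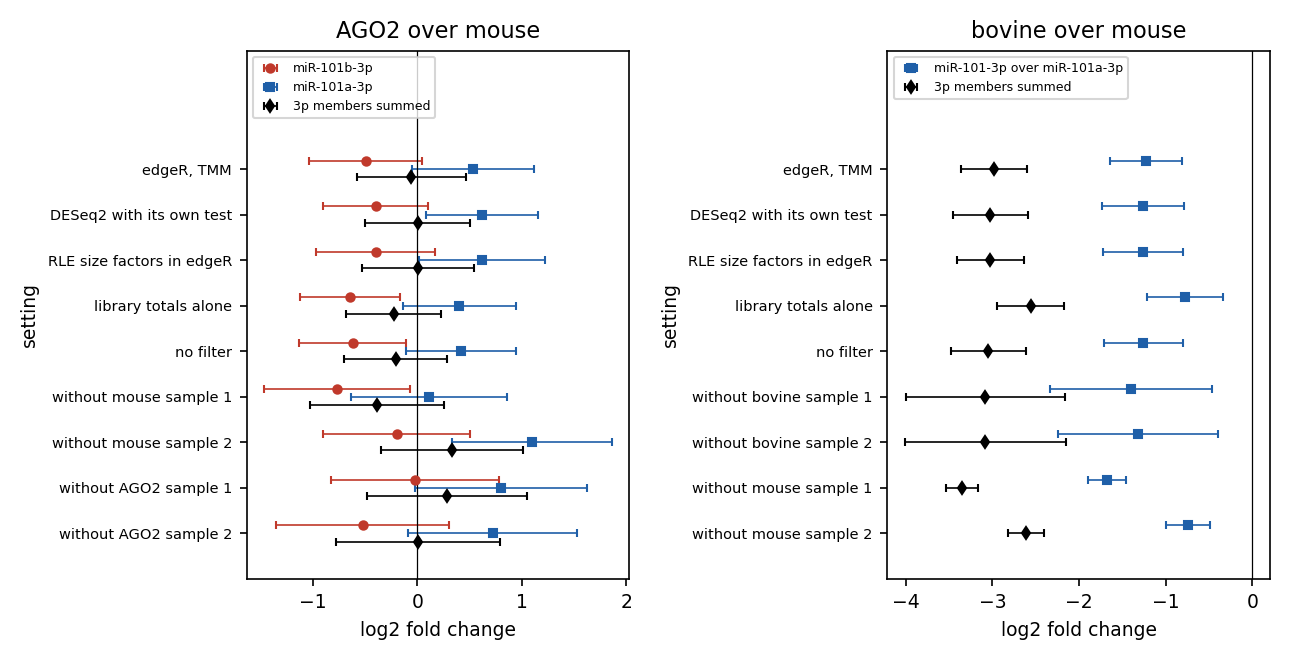
Log2 fold changes of miR-101 members and of the summed 3p members, with bars of 1 SE, for AGO2 over mouse on the left and bovine over mouse on the right under each setting. On the left the sum stays near 0 on either side, from -0.39 to 0.33, and on the right it stays between -3.35 and -2.56.

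The miRNA that share nucleotides 2 to 7 had another makeup in the cow. They summed to 1596 and 1571 RPM (1583 ± 17.6, SD, n = 2), of which miR-199c-3p gave 51.3% and 56.8%, miR-101-3p 47.8% and 42.3% and miR-144-3p 0.893% and 0.912%. miR-199c-3p stood at 819 and 892 RPM, above miR-101-3p in both pools by more than counting error. Whether reads of other miRNA with a similar sequence were counted on the miR-199c-3p line was not tested. Bovine miR-144-3p stood at 14.3 RPM in both pools and was lower than in mouse by edgeR's quasi-likelihood test (log2 fold change -6.69, SE 0.40, adjusted p = 0.00115). Of the 4 erythroid markers 3 were listed in bovine, with a summed level of 1709 and 1098 RPM, and the part of blood cells was not tested there either.

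The miRNA nearest in profile to the members over the 4 mouse and AGO2 libraries were found by the root mean square difference of log2 CPM after centring each miRNA on its own mean. For miR-101a-3p they were miR-181c-5p (0.195), miR-21a-5p (0.215) and miR-340-5p (0.223). For miR-101b-3p they were miR-148b-3p (0.0872), miR-154-5p (0.129) and miR-96-5p (0.140). The difference between miR-101a-3p and miR-101b-3p themselves was 0.586. Of the 298 other miRNA tested, 54 lay nearer than that to miR-101a-3p and 71 nearer to miR-101b-3p. miR-148b-3p followed miR-101b-3p with 1198 and 1690.1 CPM in mouse and 1047 and 1191 in AGO2. These distances are a description of 4 libraries that share their scaling.

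The other miRNA linked with mammary development or milk synthesis, a list of 26 from general knowledge, were read from the same fits. In AGO2 against mouse 24 were tested, of which 5 were called higher, 4 lower and 15 not, where 27.8% of all were called, with a median log2 fold change of 0.01 against -0.12 over all 299. miR-30b-5p (2.30, adjusted p = 0.00976) and miR-29c-3p (1.63, adjusted p = 0.0488), which targets DNA methyltransferases, were the highest, and at the other end miR-103-3p, linked with milk fat synthesis, fell (-2.17, adjusted p = 0.00210) while miR-138-5p was not called (-2.43, adjusted p = 0.195), all by edgeR's quasi-likelihood test. Thus miR-101a-3p and miR-101b-3p stood with the 15 of the list that did not pass.

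In bovine against mouse 21 of the 26 were tested, of which 5 were called higher, 10 lower and 6 not, where 57.9% of all were called, with a median of -0.79 against 0.04 over all 152. miR-21a-5p (2.04, adjusted p = 0.0157) and miR-205-5p (2.00, adjusted p = 0.00865), a miRNA of basal epithelium, were the highest by edgeR's quasi-likelihood test. miR-200a-3p (-3.29, adjusted p = 0.00191), a repressor of ZEB transcription factors in epithelium, and miR-503-5p (-2.88, adjusted p = 0.00324) were the lowest. The summed miR-101 members, at -2.98 in a separate fit with the mouse 3p lines added, lay between the values of these last miRNA. In the fit that gave the list values, miR-101a-3p was at -1.23 and not called, with 106 miRNA above it and 45 below.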

How the data were processed

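Small RNA libraries of 2 mouse, 2 AGO2 and 2 bovine samples were analysed. The authors tailed the small RNA with poly(A), removed the A stretches, filtered the reads by length and mapped them to known and predicted precursors with the quantifier of miRDeep2, so an A at the 3′ end of a read cannot be told from the tail. The deposited values used are raw counts per mature miRNA. Normalised values deposited beside them and the lists of predictions were not used. Mouse positions refer to GRCm38, with GENCODE and RefSeq as annotation. RefSeq begins and ends mature miR-101b-3p at other bases than the deposited list, whose sequence is printed.

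RPM were computed over all counts of a library. The tests used edgeR 4.0.16 with R 4.3.3 (TMM, quasi-likelihood, Benjamini-Hochberg adjustment, adjusted p under 0.05). For AGO2, the tests took miRNA whose highest count exceeded 175, as in the study's methods. For bovine, 251 mouse and bovine names were paired by the study's lines, and those at 100 RPM or more in at least 1 library were tested. The SE of a log2 fold change was set as the absolute change over the root of the F statistic. In the tests of sums, the 3p lines were replaced by their sum. Ratios and shares were compared by exact permutation tests with SciPy 1.17.1, and intervals are 95% Wilson intervals. Alternatives were DESeq2 1.42.0, RLE size factors, library totals alone, no filter, each sample left out in turn, another matching of species and other sums. A replicate block for AGO2 against mouse was chosen after seeing the data. The edgeR procedure was tested on simulated data. Members and lists were chosen with earlier results of these data known. The named miRNA were the members, miRNA with the same nucleotides 2 to 7, the 3 nearest profiles of miR-101a-3p and miR-101b-3p, and the 2 highest and 2 lowest of the mammary list in each comparison. Sample numbers follow the order of the deposited records.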

Additional observations from a re-analysis of the deposited data

How the results depend on the processing

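No 3p member was called in AGO2 against mouse in any of the 9 alternatives, with log2 fold changes from 0.11 to 1.09 for miR-101a-3p, -0.77 to -0.03 for miR-101b-3p and 0.65 to 1.80 for miR-101c. The summed 3p members, -0.06, were 0.0040 with DESeq2 and 0.0040 with RLE size factors, and -0.39 to 0.33 with each sample left out, the sign turning without mouse sample 2 and without either AGO2 sample. Unfiltered miR-101a-5p ranged from -2.98 to 0.98 with each sample left out, with 0.0037 without mouse sample 1. For bovine miR-101-3p, DESeq2 (-1.26) and no filter (-1.26) made the call, and leaving out samples gave -1.68 to -0.74. The summed members kept their call in bovine in all 9. With library totals alone, the median of all miRNA moved from -0.12 to -0.27 in AGO2 and from 0.04 to 0.50 in bovine, where miR-101-3p was at -0.78 (adjusted p = 0.173 by edgeR) and the sum at -2.56. miRNA called numbered 83 in AGO2 (52 to 85 with each sample left out, 52 without mouse sample 1) and 88 in bovine (144 with no filter, 46 to 119 with each sample left out). A fit that leaves a group with 1 sample takes its spread from the other group and assumes that the lone sample varies alike. The cause of these changes was not tested. The ratio of miR-101b-3p to miR-101a-3p ranged from -1.31 to -0.88, and the 5p share difference from -0.342 to 0.0786 percentage points. The labels give no shared numbers, but the study numbers its mouse and AGO2 samples 1 and 2, and a replicate block on these numbers was added after seeing the data. It gave 0.63 for miR-101a-3p, -0.47 for miR-101b-3p, 1.09 for miR-101c, -0.0081 for their sum and -1.04 for unfiltered miR-101a-5p, none called (adjusted p = 0.242 to 0.983 by edgeR), 121 miRNA called in all, and calls for miR-451a (1.18, adjusted p = 0.00386) and miR-486-5p (1.78, adjusted p = 0.0180). Differences between samples 1 and 2 correlated at 0.242 between mouse and AGO2 over 299 miRNA, and whether the numbers mark the same mice is not stated. The 5p strands, with 2 to 50 counts, are limited by depth.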
